A study of Saccharomyces cerevisiae with 12 samples.

Results

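The comparison described here set bottles of sparkling wine at day 7 of the second fermentation against a growing culture of the same yeast, EC1118, a commercial wine strain of Saccharomyces cerevisiae sold by Lallemand. It used 6 of the 12 arrays of the series, 3 from the bottles and 3 from the culture, chosen by their labels alone. The culture grew in YPD, a rich glucose medium, at 28 °C to an optical density of 1.0, which the labels place in mid-exponential phase without stress. The bottles, sealed and of 350 mL, held base wine with 20 g/L of sucrose and an inoculum that had first been adapted to ethanol, and stood without shaking at 16 °C. By day 7 the ethanol content had risen by 0.26%. The other 6 arrays came from bottles at day 15, with a rise of 0.89%, and at day 19, with a rise of 1.27%, and were used here for the spread of each gene and for a direct comparison with day 7. Medium, temperature, oxygen access, ethanol, growth phase and prior adaptation all differed between day 7 and the culture, so their parts cannot be told apart. There were 3 arrays per group, described as biological replicates in the labels. For the bottles the labels name independent tirage assays, tirage being the bottling with sugar and yeast. For the culture nothing says that the replicates were grown separately, so p-values may there measure a technical spread.

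Second fermentation is the step that gives sparkling wine its gas: yeast converts a small dose of added sugar in closed bottles, in a medium that is already alcoholic and acidic. In S. cerevisiae glucose represses the genes of respiration and of growth on ethanol, acetate, lactate and glycerol. When glucose runs low the SNF1 kinase relieves this repression, while lower activity of the PKA and TOR pathways allows the Msn2 and Msn4 stress response and reduces ribosome production and passage through the G1 phase of the cell cycle.

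Values are log2 intensities of probe sets after RMA, in the order of replicates 1, 2 and 3, and differences are day 7 minus reference on the log2 scale ± standard error. That error rests on 1 spread per gene shared by the 4 groups, so it may understate the spread of uneven bottles. The 3 culture arrays lay close together, with correlations across genes of 0.987 to 0.997, while those of day 7 were 0.892, 0.893 and 0.966. Day 7 replicate 1 stood apart from the other 2 in both of its correlations and on the second principal component of all arrays, as did day 19 replicate 1. Mean values of the 7 ribosomal RNA probe sets were 8.59, 6.20 and 6.32 in the culture and 13.02, 11.09 and 12.59 at day 7. The gap between 3′ and 5′ probe sets of the control gene SRB4 was 3.24, 2.98 and 3.42 at day 7 and 2.24, 2.46 and 2.63 in the culture, and that of SPT15 was 1.11, 1.18 and 1.29 against 0.60, 0.58 and 0.65, whereas those of WBP1, ACT1 and TDH1 overlapped between groups. That of RIP1 went the other way, at 0.13, -0.08 and 0.04 against 0.26, 0.29 and 0.27. The part of ribosomal RNA and of these gaps in the results was not tested. With the trend on coding length taken out of each array, a step chosen after seeing the data, there were 1081 genes higher and 983 lower, near the counts without it given next.

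Of 5449 genes tested with limma, 1076 were called higher at day 7, which is 19.7%, and 931 lower, which is 17.1%, at a Benjamini-Hochberg adjusted p under 0.05. At least 8-fold differences were found for 130 of the higher genes and 22 of the lower ones. The 3 arrays of day 7 lay entirely above or below those of the culture for 3478 genes, or 63.8%. These shares are the background against which the counts of each gene group below are read, and the median difference over all genes was -0.03. Without day 7 replicate 1, 945 genes were higher and 791 lower. Leaving out reference replicate 1, 2 or 3 reduced the lower genes to 554, 535 and 553.

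**Figure D1:**
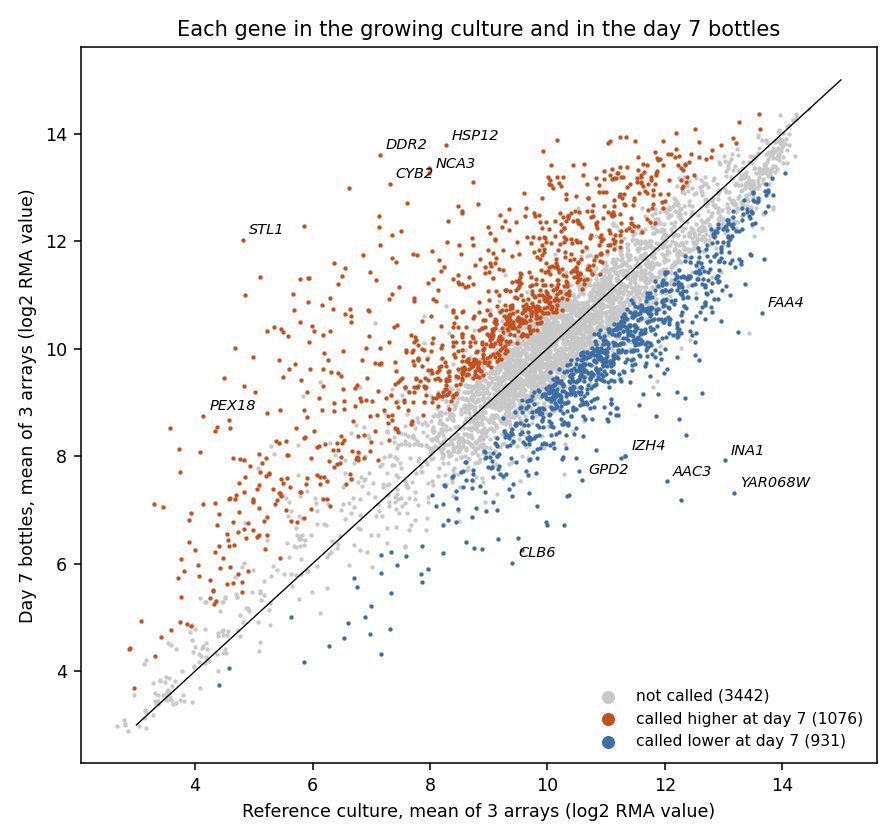
Mean log2 RMA value of each of the 5449 genes in the 3 reference arrays (horizontal axis) and the 3 day 7 arrays (vertical axis), with genes called by limma in colour and the line of equality in black. The 1076 higher genes reach farther from the line than the 931 lower ones: STL1 lies 7.21 above it and YAR068W 5.87 below.

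The gene with the largest rise was STL1, which encodes a glycerol and proton symporter of the plasma membrane. It was read at 4.58, 4.68 and 5.17 in the culture and 11.87, 11.42 and 12.76 at day 7. All bottle arrays thus lay far above the culture, and the difference was 7.21 ± 0.748 (limma adjusted p = 6.92e-05). In the culture 1 of the 3 arrays was above background, so the level there was barely measured. DDR2, a small protein of the general stress response, gave 7.19, 6.77 and 7.49 against 13.97, 13.24 and 13.62 and rose by 6.46 ± 0.397. HSP12, a small protein that binds membranes under stress, was at 8.35, 8.04 and 8.40 in the culture and at 14.23, 13.12 and 13.98 in the bottles, a difference of 5.51 ± 0.68. NCA3, a SUN family protein of the cell wall, was the most even of these: 8.26, 7.64 and 8.06 became 13.22, 13.47 and 13.09 (5.27 ± 0.211, adjusted p = 6.9e-08). YIG1, whose product binds glycerol 3-phosphatase, went from 4.75, 4.75 and 5.06 to 10.60, 10.57 and 11.83, with 2 of its 3 culture arrays above background. NQM1, a transaldolase related to TAL1, was at 7.82, 7.94 and 8.19 and then at 13.75, 12.92 and 13.40, and GPG1, which binds the G protein of the glucose receptor pathway, at 6.79, 7.10 and 7.52 and then at 12.91, 12.09 and 12.39. The other genes among the 15 with the largest rise were YNR071C, YHR033W, CYB2, RGI2, PHM8, PUT4, SIP18 and CIN5, a regulator of the Yap family, between 5.23 and 6.36. Groups did not overlap for any of the 15, as the naming rule required. The call of RGI2, a gene induced in respiratory growth, was lost without reference replicate 1 or day 7 replicate 3 (adjusted p up to 0.0592).

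Among the genes that fell, YAR068W, an open reading frame with no other name, was read at 13.27, 13.13 and 13.15 in the culture and 7.40, 7.09 and 7.43 at day 7, a difference of -5.87 ± 0.214 (adjusted p = 4.71e-08). AAC3, the ADP/ATP carrier of the mitochondrial inner membrane used without oxygen, stood at 12.24, 12.05 and 11.83 and then at 6.83, 8.31 and 7.46, a change of -4.51 ± 0.585. PHO3, a secreted acid phosphatase that acts on thiamine phosphates, moved from 12.15, 12.26 and 12.33 to 8.69, 8.75 and 8.63. The bottles were close to each other for YAR068W and PHO3. For SPT5, a transcription elongation factor, the culture gave 10.34, 10.08 and 9.54 and the bottles 7.45, 5.94 and 6.77, and the change was -3.27 ± 0.503. Several others were lowest in day 7 replicate 1, among them INA1 with 6.43, 8.87 and 8.45 against 12.99, 13.07 and 13.02, and the pseudohyphal growth regulator SFG1 with 4.66, 6.91 and 7.21 against 9.65, 9.61 and 9.46. ATF2, an alcohol acetyltransferase that makes acetate esters, was at 10.39, 10.21 and 10.26 in the culture and at 4.19, 8.85 and 7.10 in the bottles, and its call was lost without any 1 of the reference arrays or day 7 replicate 1 (adjusted p up to 0.0592). The wall protein gene TOS6 fell by 3.95, and YDL241W and YOL014W by 5.08 and 3.46. DIP5, the permease for acidic amino acids, was at 11.47, 11.17 and 11.12 and then at 9.49, 6.63 and 7.75, and lost its call without any 1 of the reference arrays or day 7 replicate 2 or 3 (adjusted p up to 0.0929).

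Of the 5 genes of glycerol uptake and breakdown, STL1, GUT1 and GCY1 rose, and GUT2, counted here with the respiratory chain, rose as well. GUT1, the glycerol kinase, gave 10.14, 10.15 and 10.29 in the culture and 13.39, 12.63 and 13.24 at day 7 (2.89 ± 0.513, limma adjusted p = 0.00163). GUT2, the mitochondrial glycerol 3-phosphate dehydrogenase, gave 9.74, 10.02 and 10.00 against 14.22, 13.04 and 13.78 (3.76 ± 0.373). GCY1, a glycerol dehydrogenase, rose by 2.98 ± 0.302. DAK1, a dihydroxyacetone kinase, did not pass, at 0.49 ± 0.224. DAK2 was not above background on any array of either group, so its lower call is no measured difference. On the side of synthesis and export, 1 of 5 genes rose, 2 fell and 2 did not pass. GPP2, a glycerol 3-phosphatase, was at 10.74, 10.82 and 10.93 and then at 13.37, 13.38 and 12.78. GPD2, a glycerol 3-phosphate dehydrogenase known for its role without oxygen, was at 9.84, 9.86 and 12.07 in the culture and at 8.10, 7.26 and 7.30 in the bottles. Reference replicate 3 lay above the other culture arrays for GPD2, and all 3 lay above the bottles (-3.04 ± 0.516). GPD1, its isoform known from osmotic stress, changed by 0.54 ± 0.329 and GPP1 by -1.21 ± 0.576, neither called. FPS1, the glycerol export channel, was called at -0.59 ± 0.203, and the call was lost without any 1 of the reference arrays or day 7 replicate 3 (adjusted p up to 0.142).

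The respiratory chain rose in nearly all of its measured subunits. All 13 genes of complexes II and III rose, by 1.02 to 2.25 with a median of 1.79, as did all 11 measured genes of cytochrome c and cytochrome c oxidase, by 0.72 to 2.02. Of 16 ATP synthase genes 15 rose, against the background of 19.7%, and the lone gene that did not pass was also higher on all day 7 arrays. QCR10, a subunit of the bc1 complex, was at 10.92, 11.00 and 11.38 in the culture and 13.15, 13.37 and 13.54 at day 7 (2.25 ± 0.193, limma adjusted p = 2.19e-05). SDH2, the iron-sulfur subunit of succinate dehydrogenase, gave 10.95, 11.00 and 10.93 against 13.26, 12.89 and 13.31, and COX13, a cytochrome c oxidase subunit, 11.39, 11.55 and 11.67 against 13.59, 13.45 and 13.62. These 3 genes showed groups that were tight and well separated. Group medians by bottle were 1.48, 1.81 and 2.07 for complexes II and III and 0.97, 1.10 and 1.31 for ATP synthase, lowest in replicate 1 each time. Of 18 assembly factors of cytochrome c oxidase 9 rose, led by COX20, a chaperone of the Cox2 subunit, with 2.26 ± 0.226, and 1 fell: MSS51, which activates translation of the mitochondrial COX1 message, by 0.73, a call lost without reference replicate 2 (adjusted p = 0.0539). With the trend on coding length removed, the medians of ATP synthase and of the assembly factors were 0.89 and 0.53 in place of 1.14 and 0.79.

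Of 8 genes listed here as electron donors to the chain 6 rose and 1, DLD3, fell, with a median of 2.27. Whether each product feeds the chain was not tested. CYB2, the L-lactate dehydrogenase of the intermembrane space, had culture values of 6.26, 7.19 and 8.50, the widest spread in this group, and bottle values of 12.28, 13.29 and 13.62 (5.75 ± 0.739). NDE2, an external NADH dehydrogenase, was at 5.81, 5.79 and 6.21 and then at 11.15, 8.70 and 10.53. NDI1, the internal NADH dehydrogenase, rose by 2.41 ± 0.305 and NDE1, the other external one, by 2.12 ± 0.334. DLD1, a mitochondrial D-lactate dehydrogenase, rose by 1.38 ± 0.346. DLD2 overlapped between groups at -0.19 ± 0.268. DLD3 was called lower at -1.35 ± 0.475 and lost that call without any 1 of the reference arrays or without day 7 replicate 1 or 3 (adjusted p up to 0.157).

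Genes of mitochondrial protein import and mitochondrial tRNA synthetases were rarely called. Of 22 genes of protein import, 0 were called higher and 1 lower, with a median of -0.31, or 5 lower with the trend on coding length removed. The 1 was PAM18, a subunit of the import motor, at 11.72, 11.99 and 11.92 in the culture and 10.13, 10.92 and 10.63 in the bottles (-1.32 ± 0.262, limma adjusted p = 0.00314). None of the 14 mitochondrial tRNA synthetases was called, in a range of -0.56 to 0.63, while of 20 cytosolic tRNA synthetases 17 fell. No probe set was assigned to the 8 listed genes of the mitochondrial genome, which were not analysed here. Among the HAP activators of respiratory genes, HAP4, the subunit that carries the activation domain, was at 11.19, 11.16 and 11.46 and then at 12.97, 12.82 and 12.65 (1.54 ± 0.208). HAP5 rose by 1.32 ± 0.222 and HAP3 by 0.99 ± 0.27, the latter not called without reference replicate 2 or day 7 replicate 3 (adjusted p up to 0.0637). HAP2 was at 0.82 ± 0.341 and did not pass. HAP1, the haem-responsive activator, fell from 11.61, 11.59 and 11.39 to 10.41, 9.96 and 10.19. The mitochondrial RNA polymerase RPO41 and its factor MTF1 were not called.

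Of 17 genes of glucose sensing and the SNF1 kinase 5 rose, and of 10 repressors and activators under the kinase 4 rose, with 0 lower in either group. These are 29.4% and 40.0%, against a background of 19.7%. CAT8, an activator of gluconeogenic genes, was at 7.09, 6.51 and 7.33 in the culture and at 11.26, 10.79 and 12.22 at day 7 (4.45 ± 0.616, limma adjusted p = 0.000372). SIP4, an activator of the same genes, rose by 3.41 ± 0.689 and ADR1, which activates ADH2 and peroxisomal genes, by 3.11 ± 0.417. The repressor MIG1 was at 10.75, 10.47 and 10.58 against 11.43, 11.61 and 10.29, and MIG2 at 10.14, 10.52 and 10.30 against 9.12, 11.23 and 8.84. Groups overlapped for MIG1, MIG2 and MIG3, and none was called. NRG1, a repressor of starch and other sugar genes, rose by 1.94 ± 0.348. SNF1, its subunits SNF4 and GAL83 and its upstream kinases SAK1, TOS3 and ELM1 were not called. SIP2, a beta subunit of the kinase, was called at 1.66 ± 0.572, and leaving out any 1 of the 6 arrays ended the call (adjusted p up to 0.14). REG2, a targeting subunit of the phosphatase that opposes the kinase, went from 6.04, 6.06 and 6.77 to 11.72, 9.98 and 11.14 (4.65 ± 0.613), while its homologue REG1 overlapped between groups at 0.16 ± 0.33. Of the glucose sensors, SNF3, of high affinity, rose by 1.66 ± 0.325 and RGT2, of low affinity, was not called at 0.40 ± 0.313. MTH1 and RGT1, which together repress hexose transporter genes, rose by 2.20 ± 0.332 and 1.57 ± 0.196. STD1, of the same list, went the other way, from 10.75, 10.60 and 10.53 to 7.46, 9.68 and 8.82, without passing (-1.98 ± 0.776, adjusted p = 0.0657).

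**Figure D2:**
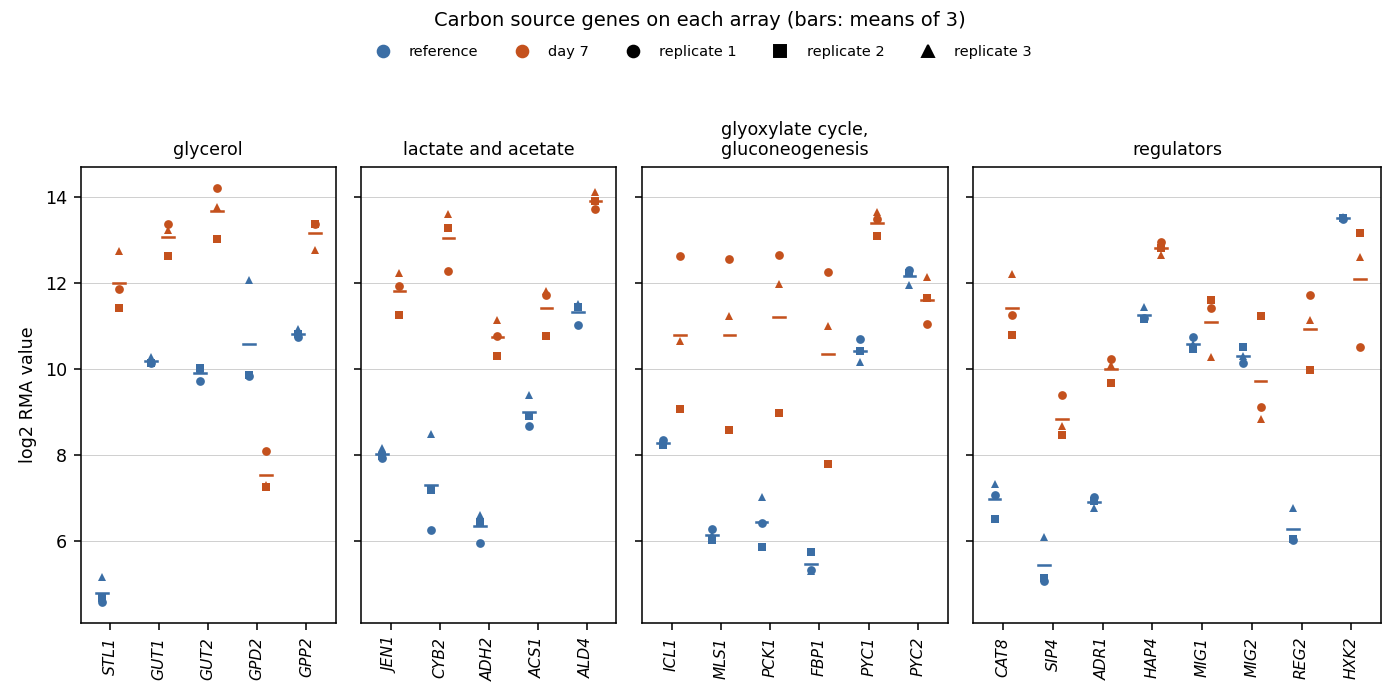
Log2 RMA values of genes of glycerol, lactate, acetate and gluconeogenic metabolism and of their regulators on the 3 reference arrays (blue) and the 3 day 7 arrays (orange), with bars at group means. The day 7 arrays spread widely for MLS1, PCK1 and FBP1, between 7.80 and 12.66, and closely for PYC1, from 13.10 to 13.65, and MIG1 and MIG2 overlap with the reference.

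Of 10 genes for the uptake and use of acids and ethanol, 7 rose, 1 fell and 2 did not pass, with a median of 2.50. JEN1, the lactate and pyruvate permease, was at 7.95, 7.99 and 8.18 in the culture and 11.94, 11.26 and 12.24 in the bottles (3.77 ± 0.327, limma adjusted p = 2.19e-05). ADH2, the alcohol dehydrogenase that oxidises ethanol, was at 5.97, 6.46 and 6.61 against 10.78, 10.30 and 11.14 and rose by 4.40 ± 1.32. Its groups did not overlap, but the call was lost without any 1 of the reference arrays and without day 7 replicate 1 or 3 (adjusted p up to 0.0688). The acetate side rose too: ALD4, the mitochondrial aldehyde dehydrogenase, by 2.58 ± 0.454, ACS1, an acetyl-CoA synthetase, by 2.43 ± 0.483 and ACH1, an acetyl-CoA hydrolase, by 2.08 ± 0.291. ACS2, the isoform used on glucose, was not called at -0.66 ± 0.483. ATO2, a transporter of the acetate and ammonium family, rose by 4.69 ± 0.547, whereas ATO3 was called at -1.42 ± 0.481 and lost its call without any 1 of the reference arrays or day 7 replicate 1 or 3 (adjusted p up to 0.111).

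In the glyoxylate cycle and gluconeogenesis 6 of 12 genes rose, 1 fell and 5 did not pass. Values were highest in day 7 replicate 1 and lowest in replicate 2 for its main enzymes, and the list's medians by bottle were 2.58, 0.91 and 2.02. FBP1, fructose-1,6-bisphosphatase, was at 5.33, 5.76 and 5.32 in the culture and 12.26, 7.80 and 11.01 at day 7 (4.89 ± 1.22, limma adjusted p = 0.01). PCK1, phosphoenolpyruvate carboxykinase, was at 6.42, 5.86 and 7.04 against 12.66, 8.99 and 11.99. MLS1, malate synthase, gave 6.28, 6.03 and 6.15 against 12.56, 8.60 and 11.25. All bottles lay above all culture arrays for these genes, over a range of more than 3 on the log2 scale among the bottles. ICL1, isocitrate lyase, had bottle values of 12.64, 9.08 and 10.66 over 8.36, 8.23 and 8.25 and did not pass (2.51 ± 0.984, adjusted p = 0.0652). The isoforms of pyruvate carboxylase, which makes oxaloacetate, differed. PYC1 was at 10.71, 10.43 and 10.16 and then at 13.49, 13.10 and 13.65 (2.98 ± 0.211, adjusted p = 7.76e-06). PYC2 was at 12.30, 12.24 and 11.97 and then at 11.06, 11.65 and 12.14, overlapping and not called. MAE1, the mitochondrial malic enzyme, fell by 2.11. Of 8 measured genes of the GID ubiquitin ligase, which degrades gluconeogenic enzymes once glucose returns, 6 rose, led by VID24, its substrate receptor, with 2.38 ± 0.377.

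Of 12 genes of the tricarboxylic acid cycle 7 rose and 0 fell. CIT1, the mitochondrial citrate synthase, was at 12.13, 12.11 and 12.09 in the culture and 13.59, 13.50 and 13.76 at day 7 (1.51 ± 0.176, limma adjusted p = 0.000128). IDH1, a subunit of isocitrate dehydrogenase, rose by 1.69 ± 0.201. Of 15 carriers 6 rose, 2 fell and 7 did not pass. CRC1, the carnitine carrier of the inner membrane, had values of 5.39, 5.75 and 5.93 and then 10.45, 10.58 and 11.12, with a difference of 5.02 ± 0.489. MPC3, the pyruvate carrier subunit of respiratory growth, was at 8.85, 10.36 and 10.81 and then at 12.70, 13.29 and 13.58, with culture values that spread more than those of the bottles. SFC1, the succinate and fumarate carrier, was not above background on any culture array and reached 9.48, 5.97 and 9.94 in the bottles, at least 12.9-fold higher (adjusted p = 0.0186). Its call was lost without reference replicate 1 or 2 or day 7 replicate 1 or 3 (adjusted p up to 0.072). The citrate carriers CTP1 and YHM2 fell, by 1.12 and 1.28.

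Peroxisomal genes rose in part. Of 15 genes of beta-oxidation, the breakdown of fatty acids, 7 rose and 8 did not pass, and of 24 measured assembly genes 11 rose and 13 did not pass. POT1, the 3-ketoacyl-CoA thiolase, was at 4.90, 5.18 and 5.57 in the culture and at 10.79, 8.78 and 11.39 at day 7 (5.10 ± 0.849, limma adjusted p = 0.00113). POX1, fatty acyl-CoA oxidase, rose by 3.61 ± 0.671. PEX18, a co-receptor that imports enzymes such as Pot1, was above background on 0 of the 3 culture arrays and reached 9.07, 7.99 and 9.17, at least 15.7-fold higher. PEX21, which pairs with the same receptor, rose less, by 1.46 ± 0.403, and lost its call without reference replicate 2 or after quantile normalization (adjusted p up to 0.0635). Day 7 replicate 2 was the lowest of the bottles for POT1, POX1 and PEX18, as it was for FBP1, PCK1, MLS1 and ICL1 above.

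Sugar metabolism showed no common direction. Of 22 measured genes of hexose phosphorylation and glycolysis 7 rose and 3 fell, with a median of 0.11. These are 31.8% and 13.6%, against backgrounds of 19.7% and 17.1%. HXK1 and GLK1, kinases for hexose that glucose represses, rose: HXK1 from 12.15, 12.08 and 12.35 to 14.10, 13.93 and 14.01, and GLK1 by 1.81 ± 0.193. HXK2, the hexokinase of growth on glucose, was at 13.49, 13.51 and 13.55 in the culture and at 10.52, 13.16 and 12.61 at day 7, so replicate 1 lay far below the other bottles, and the gene was not called (-1.42 ± 0.758, limma adjusted p = 0.161). PFK2, a subunit of phosphofructokinase, was at 13.75, 13.70 and 13.73 and then at 13.23, 12.73 and 12.63 (-0.87 ± 0.218). GPM2 and GPM3, homologues of phosphoglycerate mutase, moved apart, GPM2 rising by 1.88 ± 0.469 and GPM3 falling by 1.64.

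Of 13 genes from pyruvate to ethanol and acetate 4 rose, 1 fell and 8 did not pass, or 2 rose and 0 fell without day 7 replicate 1, with a median of 0.20 that became 0.86. The former counts are 30.8% higher and 7.69% lower, against backgrounds of 19.7% and 17.1%. PDC1 and ADH1, the main enzymes of alcoholic fermentation, overlapped between groups, with ADH1 at 14.12, 14.16 and 13.98 in the culture and 14.16, 14.12 and 14.14 in the bottles. Both genes were near the top of the intensity range, which limits what rise could be seen. ADH7, a cinnamyl alcohol dehydrogenase, was at 7.82, 7.52 and 8.02 and then at 11.16, 12.54 and 11.52 (3.96 ± 0.843, limma adjusted p = 0.00458). SFA1, an alcohol and formaldehyde dehydrogenase, rose by 1.23 ± 0.275. PDC6 and ALD2 were called higher, PDC6 with 12.49, 9.52 and 9.23 over 7.48, 7.13 and 7.56, and ADH4 lower. Each of these 3 calls was lost without any 1 of the reference arrays and without day 7 replicate 1, and those of ALD2 and ADH4 also without day 7 replicate 3 (adjusted p up to 0.135). Of 15 measured hexose transporters 7 rose and 8 did not pass, among the former HXT8 by 2.52, HXT9 by 1.93, and HXT13 and HXT17, whose probe sets share sequence with other genes. HXT17 was at 5.96, 6.21 and 6.37 in the culture and 8.05, 10.76 and 11.93 in the bottles, and HXT13 was at least 5.07-fold higher.

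Of 21 genes of storage carbohydrates, trehalose and glycogen, 15 rose, 1 fell and 5 did not pass, with a median of 1.74. GPH1, the phosphorylase that releases glucose units from glycogen, was at 9.92, 10.26 and 10.61 in the culture and 13.73, 12.53 and 13.34 at day 7 (2.94 ± 0.383, limma adjusted p = 0.000257). GAC1, which targets a phosphatase to glycogen synthase, was at 6.59, 7.53 and 8.12 and then at 12.83, 10.87 and 11.12 (4.19 ± 0.489). GIP2, a related targeting subunit, was at 5.91, 6.21 and 6.35 and then at 9.59, 8.02 and 8.92. Day 7 replicate 1 was the highest bottle for these genes of glycogen, and no group overlapped. ATH1, the acid trehalase, rose from 8.05, 7.80 and 8.23 to 10.66, 9.94 and 11.21 (2.58 ± 0.466). PGM1, the minor phosphoglucomutase, went the other way, from 11.11, 11.03 and 11.11 to 8.15, 9.31 and 9.47 (-2.11 ± 0.489).

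Of 13 hydrophilins and heat shock proteins 10 rose and 3 did not pass, with a median of 2.19. Besides HSP12 and DDR2 above, HSP26, a small chaperone, was even among the bottles, at 13.97, 13.95 and 13.54 over 11.19, 10.95 and 10.96 in the culture (2.78 ± 0.398, limma adjusted p = 0.000454). SIP18, a hydrophilin of desiccation tolerance, was uneven, at 13.86, 8.24 and 10.94 over 5.70, 5.37 and 5.90. Its relative GRE1 had the same order of bottles, 12.69, 8.73 and 10.10, and lost its call without reference replicate 2 or day 7 replicate 1 (adjusted p up to 0.0573). The chaperones SSA4 and HSP78 had another order. SSA4, an HSP70, was at 11.16, 13.14 and 12.34 over 9.22, 9.36 and 9.47, and HSP78, a mitochondrial disaggregase, at 11.20, 12.96 and 12.51. Day 7 replicate 1 was thus highest for SIP18 and GRE1 and lowest for SSA4 and HSP78. The HSP78 call was lost without reference replicate 1 or 2 or day 7 replicate 2 or 3, and that of HSP82, an HSP90, without any 1 of the reference arrays or day 7 replicate 2 or 3 (adjusted p up to 0.118). HSP104, a cytosolic disaggregase, was not called at 0.95 ± 0.567.

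Of 15 stress kinases and transcription factors 8 rose and 3 fell, or 5 and 1 without day 7 replicate 1. XBP1, a repressor of cyclin genes, was at 5.63, 5.35 and 5.52 in the culture and 10.28, 8.83 and 9.30 at day 7 (3.97 ± 0.549, limma adjusted p = 0.000371). YAK1, a kinase that acts against PKA, rose by 1.96 ± 0.305. MSN4, a stress activator, was at 12.67, 11.88 and 10.85 over 9.87, 9.93 and 10.03 and lost its call without any 1 of the reference arrays or day 7 replicate 1 or 2 (adjusted p up to 0.12). HOG1, the osmotic stress kinase, was called at -1.03 ± 0.361, and leaving out any 1 of the 6 arrays ended the call (adjusted p up to 0.132). Among 18 measured genes of RAS, PKA and TOR signalling 5 rose and 2 fell, or 3 and 2 without day 7 replicate 1, where the median was -0.10 in place of 0.08. The former counts are 27.8% and 11.1%, against backgrounds of 19.7% and 17.1%. PDE1, a cAMP phosphodiesterase, rose by 1.85 ± 0.235, the receptor gene GPR1 by 1.34 ± 0.275 and GPA2, its G protein, by 0.89 ± 0.283. CDC25, the exchange factor of RAS, fell by 0.89, and RAS1 was called at -1.27 ± 0.38. The GPA2 call was lost without any 1 of the reference arrays or day 7 replicate 1 and the RAS1 call without reference replicate 2 or 3 or day 7 replicate 1 or 3 (adjusted p up to 0.0981).

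Genes known from growth with or without oxygen were mixed, with 1 of 14 higher and 4 lower, or 2 and 3 without day 7 replicate 1. PET9, the main ADP/ATP carrier of aerobic growth, was at 12.69, 12.69 and 12.41 in the culture and 13.39, 13.59 and 13.71 at day 7 (0.97 ± 0.195, limma adjusted p = 0.00335), opposite in sign to AAC3. HEM13, an enzyme of haem synthesis that is induced without oxygen, fell from 13.32, 13.16 and 13.22 to 10.14, 10.75 and 10.05 (-2.92 ± 0.485). ANB1, the translation factor isoform used without oxygen, was at 13.16, 13.14 and 13.17 and then at 10.77, 11.98 and 12.17, while its aerobic counterpart HYP2 overlapped between groups. The ANB1 call was lost without any 1 of the reference arrays or day 7 replicate 1, and that of HMG2, an HMG-CoA reductase called at -1.16 ± 0.414, without any 1 of the reference arrays or day 7 replicate 2 or 3 (adjusted p up to 0.168). The repressor ROX1 and the activator UPC2 were not called.

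The anaerobic wall mannoproteins depended on the bottle. TIR2 was at 9.32, 9.47 and 9.02 in the culture and at 8.75, 12.02 and 13.34 at day 7, and TIR4 at 9.59, 9.33 and 8.98 against 8.66, 10.85 and 12.35. DAN1 was at 5.57, 4.86 and 5.59 against 5.31, 9.62 and 9.18. In replicate 1 these genes were near or below the culture, and in replicates 2 and 3 above it, so the groups overlapped and none of them was called. TIR1, at 13.54, 13.44 and 13.32 against 7.90, 10.41 and 12.59, and TIR3 were below the culture on every bottle array without passing the test. DAN4 was called higher at 0.98 ± 0.321 and lost its call without any 1 of the reference arrays or day 7 replicate 3 (limma adjusted p up to 0.123). The medians of the 6 genes by bottle were -0.58, 1.09 and 2.29, and 2 genes were called higher without replicate 1.

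Cyclins and replication genes were mostly lower at day 7. Fewer cells in a phase of the cycle and less RNA per cell in that phase cannot be told apart in these bulk samples. Of 14 cyclins and inhibitors 9 fell and 2 rose, against backgrounds of 17.1% and 19.7%, or 6 and 1 without day 7 replicate 1. CLB6, an S-phase cyclin, was at 9.64, 9.37 and 9.19 in the culture and 5.19, 6.57 and 6.31 at day 7 (-3.37 ± 0.403, limma adjusted p = 0.00015), while CLB5, its partner, overlapped at -0.15 ± 0.271. CLB1, a mitotic cyclin, was at 11.29, 11.18 and 11.50 against 6.31, 8.72 and 9.02 (-3.31 ± 0.625). CLB2 was at 10.59, 10.53 and 10.51 against 5.06, 9.07 and 9.05. CLN2, a G1 cyclin, was at 10.51, 10.47 and 10.50 against 6.53, 8.64 and 8.70. Day 7 replicate 1 was the lowest bottle for each of these. The CLB2 call was lost without any 1 of the reference arrays or day 7 replicate 1, and that of CLN3, the most upstream G1 cyclin, without any 1 of the reference arrays or day 7 replicate 2 or 3 (adjusted p up to 0.117). The lower calls of CLN1, PCL1 and PCL2 were lost in 2, 2 and 5 of the fits that left out 1 array (adjusted p up to 0.122). FAR1, an inhibitor of G1 cyclins, was above background on 0 of the 3 culture arrays and at 7.05, 6.70 and 7.05 in the bottles, at least 4.47-fold higher. The other gene that rose was PCL7, a cyclin of the Pho85 kinase, by 1.07 ± 0.295, a call lost without reference replicate 1 or 2 or day 7 replicate 1 or 3 (adjusted p up to 0.0559). Of 12 transcription factors of the G1/S and M/G1 transitions, SWI6 was called lower at -0.83 ± 0.247, a call lost without any 1 of the reference arrays or day 7 replicate 2 or 3 (adjusted p up to 0.0845). Without day 7 replicate 1, 3 of the 12 were called lower.

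Of 31 replication genes 16 fell and 0 rose. CDC45, a helicase subunit, was at 10.28, 10.21 and 10.27 in the culture and at 7.29, 8.29 and 8.28 at day 7 (-2.30 ± 0.478, limma adjusted p = 0.00395), and POL30, the sliding clamp, at 12.22, 12.10 and 12.33 against 9.24, 10.79 and 10.64. ORC5, a subunit of the origin recognition complex, fell by 1.74. Without day 7 replicate 1 the count was 10 of 31. Of the ribonucleotide reductase genes, RNR1, the large subunit of the cycling enzyme, fell from 12.23, 12.30 and 12.09 to 8.47, 9.76 and 9.38 (-3.01 ± 0.513), while the small subunits RNR2 and RNR4 were not called. Of 9 measured histone genes 0 were called, with a median of 0.05, or -0.16 with the trend on coding length removed. HTA1 was at 13.24, 13.37 and 13.38 against 13.64, 13.26 and 13.51, and HTB2 had the lowest difference, -0.87 ± 0.424.

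Of 11 genes of daughter cell separation 5 fell and 6 did not pass. CTS1, the chitinase that cuts the septum, was at 11.71, 11.81 and 11.75 in the culture and at 8.96, 10.67 and 10.56 at day 7 (-1.70 ± 0.407, limma adjusted p = 0.00827). DSE2 was at 10.71, 10.88 and 10.58 against 7.46, 10.37 and 10.27 and did not pass. The list's medians by bottle were -3.04, -1.09 and -0.46, so replicate 1 was the lowest again. Without it the median was -0.74 in place of -1.50, and 3 genes were called. The calls of SCW11 and AMN1 were lost without any 1 of the reference arrays or day 7 replicate 1, and that of AMN1 also without day 7 replicate 2 (adjusted p up to 0.117).

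**Figure D3:**
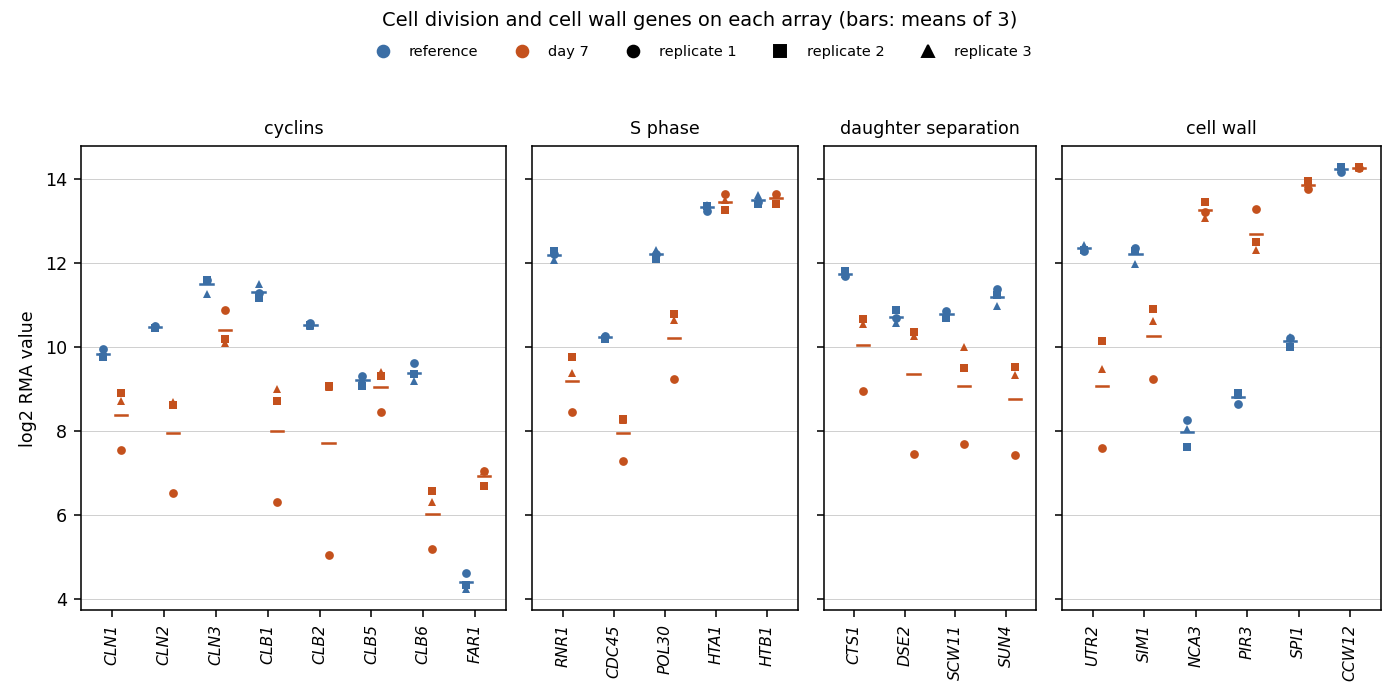
Log2 RMA values of cyclin, S phase, daughter separation and wall genes on the 3 reference arrays (blue) and 3 day 7 arrays (orange), with bars at group means. Replicate 1 (circle) is the lowest day 7 array for CLB1, CLB2, DSE2 and SUN4, whereas the histone genes HTA1 and HTB1 and the wall gene CCW12 stay level.

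Of 18 structural wall genes 5 rose and 2 fell, or 27.8% and 11.1%. Of 20 glucan genes 2 rose and 3 fell, or 10.0% and 15.0%. The backgrounds were 19.7% higher and 17.1% lower. Within the SUN family, NCA3 rose as given above, SUN4 was at 11.39, 11.25 and 10.99 in the culture and at 7.43, 9.53 and 9.35 at day 7 (-2.44 ± 0.589, limma adjusted p = 0.0085), SIM1 fell by 1.95 and UTH1 was not called. Within the PIR family of wall proteins, PIR3 was at 8.65, 8.91 and 8.87 against 13.29, 12.52 and 12.31 (3.89 ± 0.308), and PIR1, HSP150 and CIS3 were not called. SPI1, a wall protein induced in stationary phase and by weak acid, was at 10.22, 10.01 and 10.25 against 13.78, 13.97 and 13.88, and YGP1, a secreted glycoprotein of nutrient limitation, rose by 2.70 ± 0.211. GSC2, the glucan synthase isoform induced by stress, was at 9.89, 9.84 and 9.58 against 13.01, 12.45 and 12.13 (2.76 ± 0.258). FKS1, the isoform of vegetative growth, was called at -0.98 ± 0.314, a call lost without any 1 of the reference arrays or day 7 replicate 2 or 3 (adjusted p up to 0.0852). UTR2, which links chitin to glucan, was at 12.30, 12.33 and 12.44 against 7.60, 10.15 and 9.48. The abundant wall proteins CCW12, CWP2 and SED1 did not pass, at 0.04 ± 0.234, 0.11 ± 0.155 and 0.15 ± 0.172, near the top of the intensity range.

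Genes of ribosome production were mostly lower. Of 41 genes of the small subunit processome and its snoRNPs 27 fell and 0 rose, with differences from -1.97 to -0.49. Of 46 large subunit assembly genes 30 fell and 0 rose, and of 20 subunits of RNA polymerases I and III 16 fell. EMG1, a methyltransferase of the small subunit, was at 12.47, 12.56 and 12.37 in the culture and 10.96, 10.63 and 9.89 at day 7 (-1.97 ± 0.359, limma adjusted p = 0.00189). DBP2, an RNA helicase, was at 12.41, 12.60 and 12.53 against 11.25, 9.47 and 8.95. RPA43, a subunit of RNA polymerase I, was at 11.86, 11.87 and 11.50 against 9.58, 9.63 and 9.25 (-2.26 ± 0.387). Here the order of the bottles was the reverse of that in cell separation: list medians were -0.66, -1.05 and -1.61 for the small subunit processome and -0.45, -1.03 and -1.54 for the large subunit. Without replicate 1 the counts were 33 of 41 and 37 of 46. RNA polymerase I and III subunits had even medians of -1.17, -1.11 and -1.24. Of 12 RNA polymerase II subunits 7 fell, among them RPB5, at -1.26 ± 0.298, RPO26, RPB8 and RPC10. All 3 polymerases share these subunits, so the count is not one of polymerase II alone, and RPC10 was counted in both lists. The calls of RPO26 and RPB8 were each lost in 5 fits that left out 1 array, and that of RPC10 in 1 (adjusted p up to 0.116).

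Of 127 measured ribosomal protein genes 24 were called lower, close to the background of 17.1%, and 0 higher, with a median of -0.40. The day 7 arrays were all above or all below the culture arrays in 117 of the 127, against a background of 63.8%. RPL6B, a protein of the large subunit, was at 13.73, 13.75 and 13.79 in the culture and 12.66, 12.83 and 12.48 at day 7 (-1.10 ± 0.249, limma adjusted p = 0.00616). With the trend on coding length removed 41 were lower. The pair of copies with the largest gap in change was RPL9A at -1.19 and RPL9B at -0.28, followed by RPL13A at -1.10 ± 0.262 and RPL13B at -0.31 ± 0.205, and the gaps were not tested. Near-identical copies may hybridise to each other's probe sets. The RPL9A call was lost when any 1 of the 6 arrays was left out (adjusted p up to 0.124). Of 33 measured translation factors 21 fell and 0 rose. TIF4631, the eIF4G scaffold, was at 12.25, 12.25 and 12.11 against 11.14, 10.03 and 10.23, and PRT1, NIP1 and RPG1, subunits of eIF3, fell by 1.55, 1.65 and 1.54. Of 20 cytosolic tRNA synthetases 17 were called lower, with a median of -1.01, or 11 without day 7 replicate 1.

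Of 32 genes of purine and pyrimidine synthesis 24 fell, 2 rose and 6 did not pass. ADE4, the entry step of purine synthesis, was at 12.60, 12.58 and 12.38 in the culture and 10.68, 10.16 and 9.56 at day 7 (-2.39 ± 0.356, limma adjusted p = 0.000583). ADE17, a late step, fell by 2.02. The risen genes were isoforms of pyrimidine enzymes: URA10, the minor orotate phosphoribosyltransferase, at 8.04, 8.18 and 8.49 against 11.39, 11.32 and 11.86, and URA8, a CTP synthase, with 1.65 ± 0.227. Of 12 genes of one-carbon, serine and glycine metabolism 6 fell and 2 rose. AGX1, which makes glycine from glyoxylate, was at 7.33, 7.23 and 7.52 and then at 12.32, 11.38 and 12.63 (4.75 ± 0.366, adjusted p = 1.37e-05). SER2, the last step of serine synthesis, fell from 11.50, 11.59 and 11.59 to 8.81, 9.46 and 8.60, and GCV2, of glycine cleavage, fell by 1.88. Of 43 genes of the secretory entry pathway in the endoplasmic reticulum 11 fell, or 25.6% against a background of 17.1%, and 0 rose. The median was -0.52, with 7 lower and 1 higher without day 7 replicate 1 and 17 lower and 1 higher with the trend on coding length removed.

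Nutrient uptake genes went in both directions. Of 21 amino acid permeases 3 rose and 3 fell, or 3 and 5 without day 7 replicate 1. The former counts are 14.3% each way, under the backgrounds of 19.7% higher and 17.1% lower. PUT4, the proline permease, was at 6.00, 5.60 and 6.23 in the culture and 12.83, 9.43 and 11.68 at day 7 (5.37 ± 0.672, limma adjusted p = 0.000189). Its standard deviation was 1.73 at day 7 and 0.318 in the culture, while the error given pools the groups. AGP2, a plasma membrane regulator and carnitine transporter, rose by 4.02 ± 0.363. BAP3, for branched-chain amino acids, was at 11.82, 11.95 and 11.87 against 6.82, 10.42 and 10.20. Of 22 measured phosphate genes 3 rose and 3 fell, 13.6% each way and also under the backgrounds. PHM8, a phosphatase of nucleotides and lysophosphatidic acid, was at 5.41, 5.58 and 6.79 against 12.07, 11.33 and 10.56 (5.39 ± 0.592). Of 11 genes of zinc transport and the IZH family, whose membrane proteins are tied to zinc and sterol metabolism, 2 rose and 4 fell. These are 18.2% and 36.4%. ZRT2, the low-affinity zinc transporter, had near-identical bottles, at 10.31, 10.29 and 10.29 under 12.37, 12.19 and 12.26. Among 9 genes of sterol uptake and esterification, ARE1, a sterol acyltransferase, fell by 1.58 and YEH2, a steryl ester hydrolase, by 1.38, and PRY1, a secreted sterol-binding protein, rose by 1.77 ± 0.454. Of 17 measured genes of thiamine and pyridoxine metabolism 5 rose and 5 fell, 29.4% each way. THI80, thiamine pyrophosphokinase, fell by 1.51, while THI13, whose probe set shares sequence with its copies, rose by 2.77 ± 0.433.

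Of 17 genes of mating and of haploid cells 6 were called higher, a count that depended on normalization. STE3, the receptor for a-factor, was at 5.93, 5.96 and 6.44 in the culture and 8.38, 7.82 and 8.36 at day 7 (2.08 ± 0.337, limma adjusted p = 0.000991). After quantile normalization the list had 1 gene higher and 1 lower, and its median was 0.17 in place of 0.92. The 7 genes used for normalizing expression, such as ACT1 at 13.78, 13.74 and 13.70 against 13.68, 14.03 and 13.75, were not called, and their median was 0.07, or -0.02 without day 7 replicate 1. Of 499 open reading frames with a systematic name alone 131 were higher and 60 lower, where 19.7% and 17.1% of all genes were. YNL194C was at 7.23, 7.40 and 8.22 against 13.16, 12.40 and 12.57, and YOL131W was at least 10.3-fold higher.

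**Figure D4:**
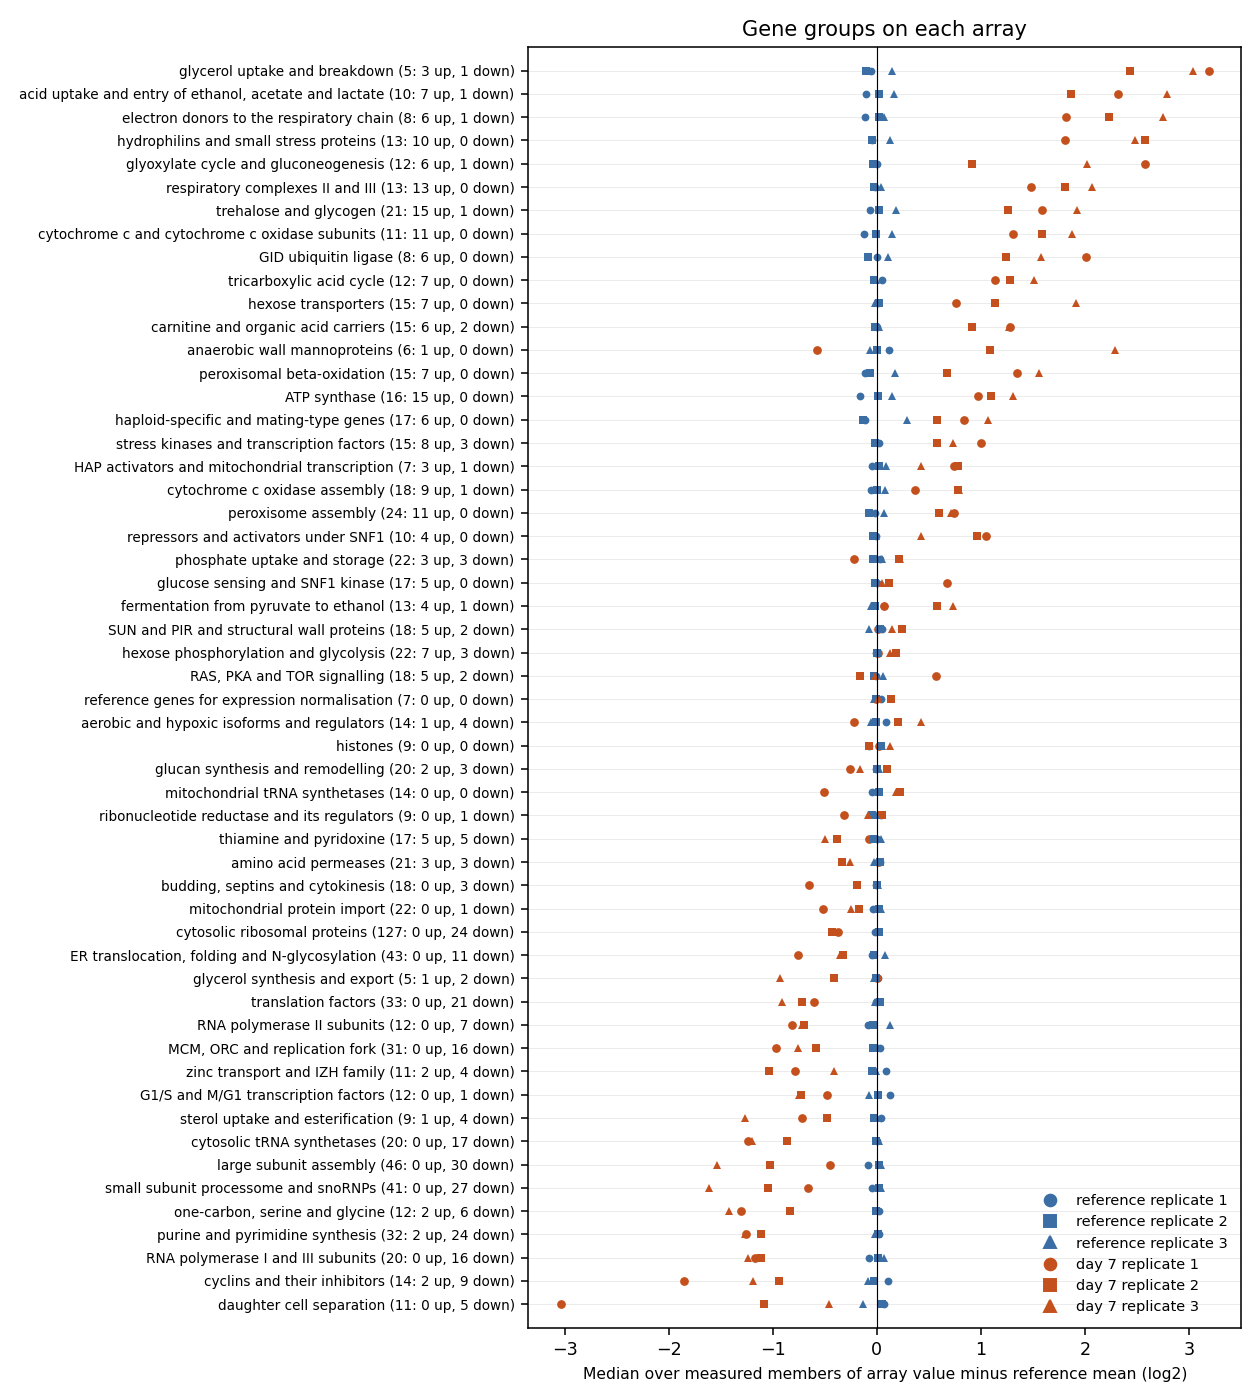
For each measured gene group, the median over its members of the array value minus the reference mean (log2) on each reference array (blue) and day 7 array (orange), with the number of members and of called genes in brackets. The reference arrays stay near 0, the day 7 arrays of respiratory complexes II and III lie between 1.48 and 2.07, and replicate 1 (circle) parts from the others for daughter cell separation, at -3.04, and for the anaerobic mannoproteins, at -0.58.

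Some genes differed widely among the 3 bottles. SPG4, a gene of stationary phase, was at 13.85, 7.39 and 10.60 at day 7 over 7.75, 7.66 and 8.26 in the culture. AQY1, a water channel of spores, was at 13.01, 7.29 and 7.80 over 6.25, 6.12 and 6.01, and GAP1, the general amino acid permease, at 13.53, 7.67 and 8.35 over 7.98, 7.99 and 7.91. HXT5, a hexose transporter of slow growth, was at 12.39, 6.13 and 8.82 over 5.92, 5.40 and 6.21. In replicate 2 HXT5 stood within its culture range, SPG4 and GAP1 below theirs and AQY1 above it. GNP1, a glutamine permease, went the other way, at 5.53, 10.98 and 11.32 with the lowest culture array at 11.57. ARO9, an aromatic aminotransferase, was at 6.44, 10.31 and 12.25 around culture values of 10.09, 9.84 and 9.55. Of the 8 genes with the widest spread, the other two were SIP18, given above, and HBT1, a gene of mating projections, at 13.22, 7.03 and 11.16. None of the 6 genes given here with SPG4 was called by limma, with adjusted p from 0.0994 to 0.92, and over all genes the standard deviation had a median of 0.321 at day 7 against 0.118 in the culture.

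Day 7 was also set against the mean of the later bottles, to ask what differed within the bottles. The same day 7 arrays enter both comparisons. The same fit called 2 genes of 5449, which is 0.0367%, and 663 genes, or 12.2%, had an unadjusted p under 0.05. IZH4, an IZH family membrane protein tied to zinc homeostasis, was at 6.98, 7.64 and 9.38 at day 7, 10.36, 11.71 and 12.09 at day 15 and 11.47, 12.25 and 12.64 at day 19. It was lower at day 7 by 3.75 ± 0.506 (limma adjusted p = 0.0294), and the culture, at 11.41, 11.24 and 11.34, lay in the range of the later bottles. FAA4, an acyl-CoA synthetase for imported long-chain fatty acids, was at 11.04, 10.61 and 10.35, then at 11.54, 11.56 and 11.45 and then at 12.29, 12.76 and 12.80. Its difference was -1.40 ± 0.189 (adjusted p = 0.0294), and its culture values of 13.70, 13.64 and 13.62 were above all bottles. Related genes had like values without passing: IZH1 was at 11.53, 10.16 and 11.82 at day 7 and from 12.56 to 14.13 later (-2.35 ± 0.425, adjusted p = 0.0847), and IZH2 at 10.13, 10.10 and 10.54 and from 10.96 to 13.05 later (-1.82 ± 0.361, adjusted p = 0.142). Without both arrays that stand apart, day 7 replicate 1 and day 19 replicate 1, 68 genes were higher and 145 lower, a step chosen after seeing the data. Among the latter were IZH1, IZH2, IZH4, FAA4, the steryl ester hydrolase YEH1 at -2.67 ± 0.245, DAN1 at -2.97 ± 0.324 and HEM13 at -1.40 ± 0.28. Leaving out 1 array at a time gave 0 genes without replicate 2 of day 7, day 15 or day 19 or replicate 3 of day 15 or day 19, and 1 without day 7 replicate 1. It gave 30 higher and 31 lower without day 15 replicate 1, and 87 and 143 without day 19 replicate 1. With the culture arrays left out of the fit, 0 genes were called in either direction.

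**Figure D5:**
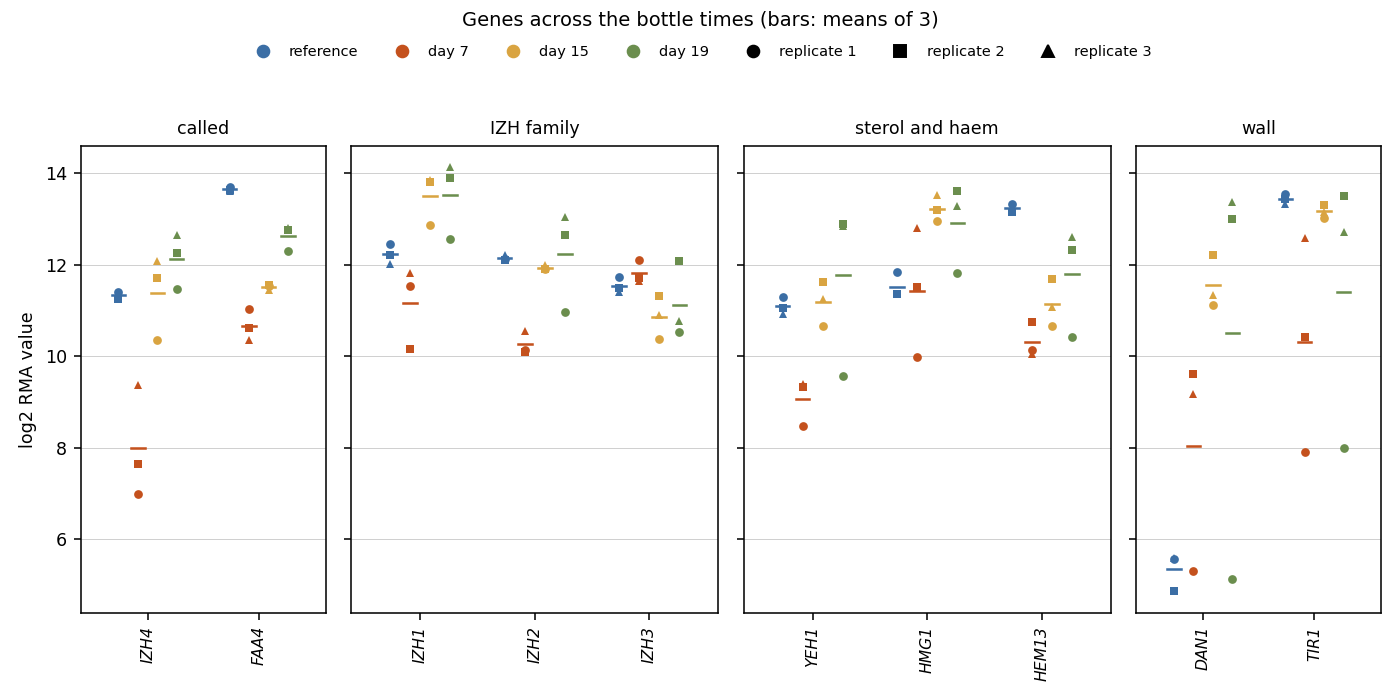
Log2 RMA values of IZH family, sterol, haem and wall genes on the 3 arrays of the reference, day 7, day 15 and day 19, with bars at group means. IZH4 and FAA4 are lower on every day 7 array than on every later array, and for DAN1 and TIR1 replicate 1 (circle) lies below the others at day 7 and day 19.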

How the data were processed

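Total RNA of 12 samples was hybridised to Affymetrix Yeast Genome 2.0 arrays, with 5 µg of RNA per array and biotin labelling from the 3′ end, per the labels' protocols. The log2 values were made by the authors with RMA before they were deposited, per the submitters' processing notes, and its version is not given in the sources used here. RMA normalizes arrays to each other, so differences are relative to all probe sets. Of 10928 probe sets 5498 named 1 S. cerevisiae gene. The brightest was kept for 47 genes with several, which left 5449 genes, and 12 symbols were updated from RefSeq. Background was each array's 0.95 quantile of the 1746 Schizosaccharomyces pombe probe sets, 4.50 to 4.82. "At least" marks folds against a group with no array above it.

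The 4 groups were fitted together on 12 arrays with limma 3.58.1 in R 4.3.3 (8 residual and 3.42 prior degrees of freedom). Two-sided p-values were Benjamini-Hochberg adjusted over all genes of a comparison, and called under 0.05. The fit was tested on simulated data. The number of arrays, 3 per group, limits the precision. The 55 gene lists, 54 of them measured, and the comparisons were chosen with earlier results of these data known. Genes named are the 15 with the largest called, non-overlapping change in each direction, up to 4 leading members and 2 opposite ones of each list (any member of small lists), and those that differ most among the bottles. Summaries and plots used Python 3.11.15, pandas 2.3.3 and matplotlib 3.10.9. The alternatives tried were other centring and normalization, filters, probe set choices, limma settings, the replicate number as a block and leaving out each array. Replicate numbers were not used as pairs in the main fit. Between the reference and day 7, deviations from the group mean correlated at 0.0504, 0.153 and 0.223 for like numbers. Between day 7 and day 15 they correlated at -0.188, -0.277 and 0.195, and between day 7 and day 19 at 0.414, 0.346 and 0.0601. Not every like-numbered pair was above 0.1 in any of these. Such values cannot settle whether like numbers belong together.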

Additional observations from a re-analysis of the deposited data

Results flagged for a closer look

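The test of day 7 against the later bottles picked out IZH4 and FAA4 as genes whose bottle values changed with time. Day 7 minus later was -3.75 ± 0.506 on the log2 scale for IZH4 and -1.40 ± 0.189 for FAA4, both with a limma adjusted p of 0.0294 and with every day 7 array below every later array. Both calls depended on single arrays, as given with the comparison, and neither passed when the culture arrays were left out of the fit.

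The 7 probe sets for ribosomal RNA, which entered no test, were higher at day 7 than in the culture by 5.20 on the log2 scale, with no overlap between the 3 arrays of each group. Their part in the gene results was not tested.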

How the results depend on the processing

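For day 7 against the culture, the counts of 1076 higher and 931 lower genes became 1786 and 1697 with array weights and 633 and 414 at an adjusted p under 0.01, and 615 lower genes had at least a 2-fold change. Leaving out 1 array at a time gave 736 to 945 higher and 535 to 791 lower genes. For day 7 against the later bottles, the 0 higher and 2 lower genes became 430 and 396 with array weights and 68 and 145 without both arrays that stand apart. With the trend on coding length removed 5 genes were lower, and 0 were lower with only the groups compared or at an adjusted p under 0.01. Leaving out 1 array at a time gave 0 to 87 higher and 0 to 143 lower genes. Whether the replicate number pairs the samples was not settled. With it as a block, the counts were 1077 and 918 against the culture and 0 and 1 against the later bottles. The cause of these shifts was not tested. Of 385 named genes, 253 were called, and each kept its sign in all settings run, while 69 lost the call in at least 1 setting. Quantile normalization ended the calls of ADH2, SFC1, PDC6, SIP2, DAN4 and PEX21, among others. Of the medians of the 54 measured lists, 5 changed sign in at least 1 setting, in 10 of 864 combinations of list and setting, each with a reported median of at most 0.11 in size (PKA signalling, reductase, histones, mitochondrial synthetases, normalization genes). In 30 of 864 they moved by more than the spread between replicates. Arrays give no depth, and values near background or near the top of the range bound what differences could be seen.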
